A study of Mus musculus with 2 samples.

Results

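The periosteum is the connective tissue sheath on the outer face of bone, and most of its mesenchymal cells are fibroblasts or skeletal progenitors. In many tissues fibroblasts that carry Dpt fall along an axis. At one end are Pi16 and Dpp4 positive cells of fascia and vessel adventitia, and at the other end are more specialised cells that secrete basement membrane, complement and chemokines. The cells described here were defined by 5 genes of the second kind. These were Gdf10, a secreted protein of the TGF-beta superfamily, Inmt, an N-methyltransferase, Ccl11, the chemokine eotaxin that attracts eosinophils, Ms4a4d, a membrane protein of the MS4A family, and Scn7a, an atypical sodium channel.

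Cells positive for Prx1-driven recombination were sorted from the periosteum of femurs and tibias of 8-week-old mice and captured on the BD Rhapsody system. The control library came from Prx1 Cre; Ai9/+ mice and the other, called Piezo1 fl/fl here, from Prx1 Cre; Ai9/+; Piezo1 fl/fl mice, so both share the Cre and the Ai9 reporter. Prx1 Cre acts in limb mesenchyme, so Piezo1, a mechanically gated ion channel, is targeted in the whole limb mesenchyme and not only in these fibroblasts. Each genotype had 1 library, and the number of animals behind it is not given in the sources used here. Genotype therefore cannot be told apart from library, no test between genotypes was possible, and every interval below is a 95% interval for counting error only.

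A cell passed the filters with 1000 to 5000 genes and under 25% mitochondrial UMIs, where a UMI marks 1 captured mRNA molecule. It counted as a Dpt and Clec3b fibroblast with at least 10 UMIs of these genes per 10000. It was a member when the summed UMIs of Gdf10, Inmt, Ccl11, Ms4a4d and Scn7a were at least 3 and exceeded those of Pi16, Dpp4, Sema3e, Anxa8 and Procr. By this rule 572 of 4455 control cells and 653 of 5141 Piezo1 fl/fl cells were members, 1225 of 9596 in all. Members were thus 12.8% (11.9 to 13.9) of control cells and 12.7% (11.8 to 13.6) of Piezo1 fl/fl cells. As a share of Dpt and Clec3b fibroblasts they were 39.0% (36.5 to 41.6) of 1466 cells and 30.0% (28.1 to 32.0) of 2178 cells. The lower share in the Piezo1 fl/fl library went with more fibroblasts in neither group, 608 cells against 183 in the control. The libraries shared 50 cell barcodes, of which none marked a member in both libraries.

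**Figure D1:**
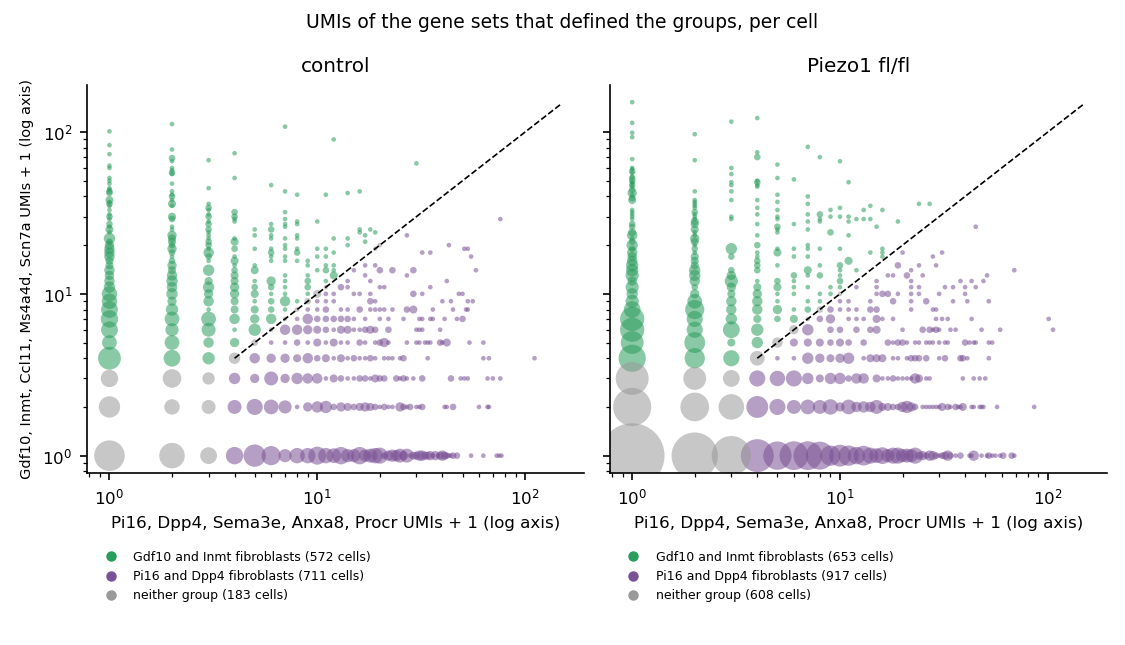
UMIs of the gene sets that defined the groups, in every Dpt and Clec3b fibroblast of the control (left) and Piezo1 fl/fl library (right). Both log axes give UMIs per cell plus 1, the area of a point grows with the number of cells at that pair of values, and the dashed line marks equal counts. Members (572 and 653 cells) lie above the line and meet the other fibroblasts without a gap.

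The 5 genes that chose the members are described here without a test. Their summed UMIs ranged from 3 to 111 per control member with a median of 11, and from 3 to 152 with a median of 9 in the Piezo1 fl/fl library. The members did not form an island. At the threshold of 3 UMIs there were 44 and 65 cells, and just outside it, with 2 UMIs and fewer of the other set, 30 and 74 cells. Levels are given as CPM, a gene's UMIs per 1000000 UMIs of the group. Cxcl14, a chemokine not used by the rule, was at 1331 and 1472 CPM in the cells at 3 UMIs and at 1569 and 2457 in those at 2 UMIs. UMIs of the opposing set were absent from 182 control members and 247 Piezo1 fl/fl members, while 175 and 167 members had 3 or more of them.

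Gdf10 was the most abundant of the 5, at 1321 CPM (1281 to 1361) in control members and 1289 (1255 to 1324) in Piezo1 fl/fl members. The rule counts Gdf10 UMIs, so its detection in members was partly set by the rule. Gdf10 was detected in 70.6% and 64.3% of members, against 3.2% and 3.5% of endothelial-like cells. Those cells had median depths of 2835 and 2961 UMIs, and members 4832 and 5775. SSPC-1-like cells, the Col8a1 and Egfl6 progenitor class of this tissue, held the next highest Gdf10 level, 371 and 308 CPM. Inmt was at 211 and 201 CPM but was found in only 32.0% and 23.4% of members. After each cell was thinned to 2500 UMIs these shares were 62.8% and 54.9% for Gdf10, and 25.4% and 16.5% for Inmt. Most members thus had a Gdf10 UMI, and a minority had an Inmt UMI.

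Scn7a was at 367.5 and 401 CPM and was found in 66.4% and 79.8% of members. Ms4a4d was at 361 CPM (341 to 382) in the control and 232.5 (218 to 248) in the Piezo1 fl/fl library. Ccl11 was at 501 (477 to 526) and 273 (257 to 289) CPM and was found in 52.8% and 37.4% of members. Per UMI, Ccl11 and Ms4a4d were lower in Piezo1 fl/fl members. Gdf10, Inmt and Scn7a differed less, Gdf10 and Inmt with overlapping intervals. All 5 genes chose the members, so these values describe them and do not test a difference between libraries. In Pi16 and Dpp4 fibroblasts of the same libraries Gdf10 was at 91.7 and 67.2 CPM and Inmt at 13.9 and 6.31. Those cells had to hold more UMIs of the opposing set than of these 5 genes, so low levels there were partly set by the rule. The 5 genes lie on different chromosomes in GENCODE vM21 (GRCm38), with Gdf10 at chr14:33923587-33937983 and Inmt at chr6:55170626-55175043.

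Members had the general markers of fibroblasts. Each of the 12 genes of that list, such as Pdgfra, Cd34, Ly6a and Dcn, was detected, and they summed to 98190 and 107300 CPM, against 13010 and 13940 in endothelial-like cells. The list did not set members apart from other mesenchymal classes. It was at 80720 and 76450 CPM in SSPC-1-like, 120600 and 103300 in tendon-like, and 210200 and 195200 in osteogenic-like cells. Defining markers of mural, endothelial and blood cells were low, and those of the other mesenchymal classes were not absent. The mural list (Rgs5, Myh11, Notch3, Kcnj8 and Higd1b) summed to 34.6 and 42.6 CPM, 0.304% and 0.389% of its level in mural-like cells, and Higd1b was not detected. The endothelial list summed to 15.2 and 17.1 CPM, and the blood list to 96.2 and 91.5 against 16540 and 15820 in blood-like cells. Of the members, 8 and 16 had 3 or more mural UMIs and 15 and 13 had 3 or more blood UMIs. The SSPC-1 list summed to 620 and 817 CPM in members against 9184 and 6939 in SSPC-1-like cells, and 39.3% and 52.4% of members had 3 or more of its UMIs. The tendon class list summed to 679 and 1227 CPM against 21100 and 19200 in tendon-like cells, with 3 or more UMIs in 22.9% and 35.4% of members. The osteogenic class list was at 154 and 59.9 CPM, with 3 or more UMIs in 4.37% and 2.45%. Scrublet called few doublets in either library, 46 and 67 barcodes in all.

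The comparison with Pi16 and Dpp4 fibroblasts asks what else separates these neighbouring fibroblasts within a library. Those numbered 711 control and 917 Piezo1 fl/fl cells, with median depths of 5322 and 6026 UMIs. Members had higher levels of the chemokine Cxcl14, of 5 of 13 measured complement genes, among them C2 and Masp1, and of 5 of 17 basement membrane genes, such as Col4a1. They had lower levels of Fn1, Cd55, Wnt2, Crabp2 and Aqp1. A gene was called when it differed at least 2-fold the same way in both libraries, among 9037 genes with at least 50 UMIs over both groups in each library. By this rule 224 genes (2.48%) were higher and 187 (2.07%) lower in members, and the median log2 ratio of all genes was -0.03 in each library. The 12 genes used to choose the cells are not in these counts.

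Masp1 and C2, proteases of the lectin and classical complement pathways, were near the top of the genes ranked by the smaller ratio of the libraries. Masp1 had log2 ratios of 3.88 (3.22 to 4.70) and 3.49 (2.97 to 4.10), and C2 of 3.19 (2.81 to 3.62) and 3.50 (3.20 to 3.83). Masp1 was found in only 66 control and 98 Piezo1 fl/fl members, and C2 in 149 and 228. Steap4, a metalloreductase, was at 418 and 460 CPM against 57.4 and 57.8, and was found in 368 of 572 and 455 of 653 members.

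Cxcl14 was the most abundant gene among those named, at 2484 CPM in control and 1817 in Piezo1 fl/fl members against 274 and 264. Its log2 ratios were 3.18 (3.09 to 3.27) and 2.79 (2.71 to 2.86), and SSPC-1-like cells lay between at 1024 and 1289. Smoc2, a matricellular protein of basement membranes, was at 774 and 491 CPM against 96.5 and 76.2. SSPC-1-like cells had as much Smoc2 as control members, 773 CPM, and more than Piezo1 fl/fl members, 891. Adh1, an alcohol dehydrogenase that also oxidises retinol, had log2 ratios of 2.96 (2.65 to 3.29) and 2.79 (2.44 to 3.17).

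Abcc9, a regulatory subunit of ATP-sensitive potassium channels, and Fmo2, a flavin monooxygenase, differed in size between the libraries. Abcc9 was at 82.3 and 203 CPM in members against 11.6 and 4.62, log2 ratios of 2.82 (2.39 to 3.30) and 5.43 (4.93 to 6.03). Fmo2 had log2 ratios of 2.75 (2.52 to 3.00) and 4.80 (4.54 to 5.09). Further genes named by rank were Tmem204, Ccbe1, a secreted factor of lymphatic growth, and Mdk, the growth factor midkine. The smaller of their log2 ratios was 2.68, 2.65 and 2.48. Cyp2e1, a cytochrome P450 picked out after its values were seen, had 82 and 96 UMIs in members and none in Pi16 and Dpp4 fibroblasts, so members were at least 36.5-fold and 49.4-fold higher against a limit of 3 UMIs per group. It came from only 11 and 25 members, and 1 cell held 45.1% and 31.2% of those UMIs.

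Of the genes lower in members, Clic5, a chloride channel family protein, was at 5.57 and 4.04 CPM against 88.2 and 52.4. Crabp2, which carries retinoic acid in the cell, was at 6.50 and 17.6 against 54.4 and 178, log2 ratios of -3.04 (-3.79 to -2.42) and -3.33 (-3.70 to -3.00). Aqp1, a water channel, was at 35.9 and 62.8 CPM against 254 and 645. Chst15, Duox1, Hbegf, Rgcc, Uchl1, Ptgs1, Fam167a, Ociad2 and Ltbp2 were named by the same rank, with the ratio nearer to 0 between -2.09 (Ltbp2) and -2.92 (Chst15). Most Clic5 of the other group came from few cells, 44 of 711 and 37 of 917, and 1 control cell held 44.4% of the control UMIs. Of the control Hbegf UMIs of that group 29.8% came from 1 cell. With at least 20 Dpt and Clec3b UMIs per 10000, Hbegf was no longer 2-fold lower, at -0.74 in place of -2.31, and Clic5 was at -1.04 in place of -3.66 and Rgcc at -1.06 in place of -2.27. In cells thinned to 2500 UMIs Hbegf was at -0.11. Slurp1, a secreted Ly6 family protein picked out after its values were seen, had 1 and 3 UMIs in members against 196 and 674 in Pi16 and Dpp4 fibroblasts.

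**Figure D2:**
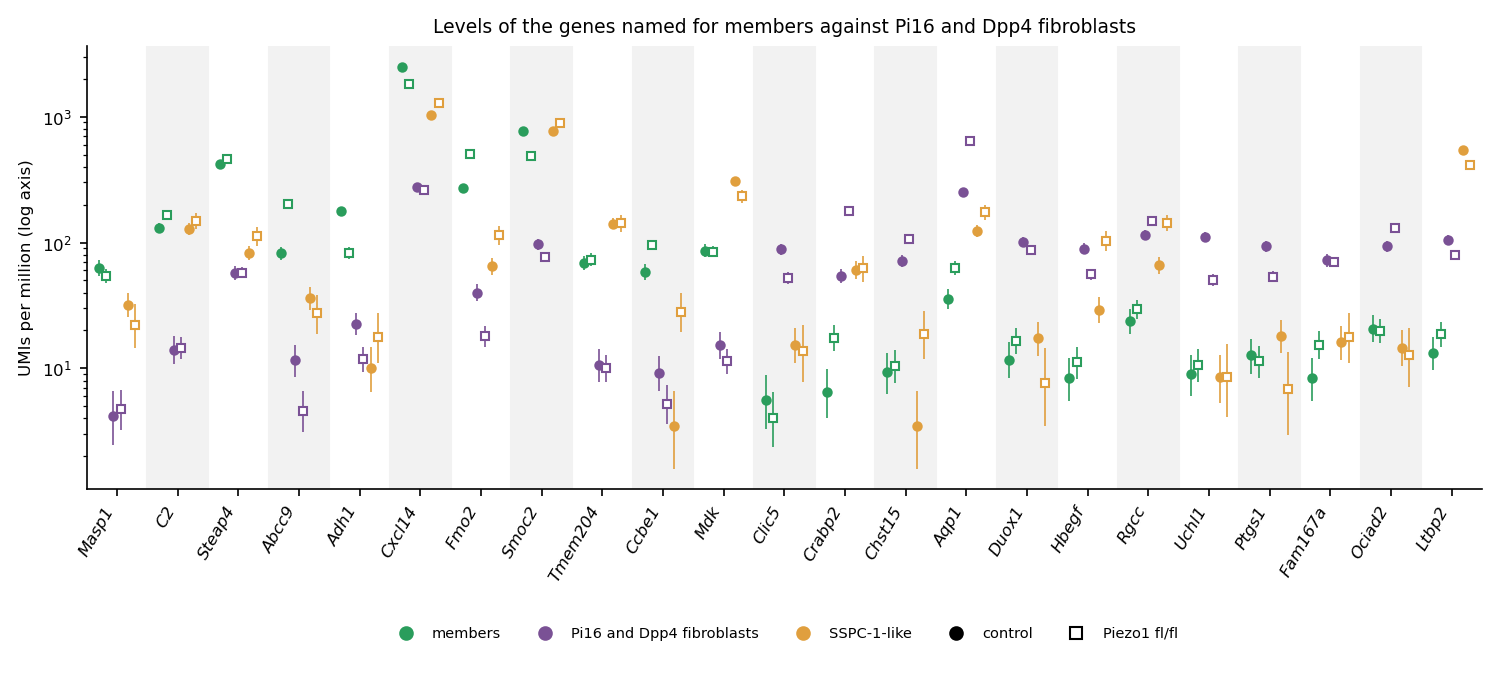
Levels of 23 genes named for members against Pi16 and Dpp4 fibroblasts, in CPM on a log axis, in 3 groups of cells and both libraries with 95% Poisson intervals. Genes from Masp1 to Mdk were higher and those from Clic5 to Ltbp2 lower in members than in Pi16 and Dpp4 fibroblasts of the same library, while SSPC-1-like cells matched neither group as a whole.

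The gene lists describe the same contrast by function. They were written with earlier results of these data known, so their counts are a description. Of 17 genes of specialised, or parenchymal, fibroblasts 12 were higher and none lower, with median log2 ratios of 1.97 and 1.52. Hsd11b1, which activates glucocorticoids, was at 43.3 and 24.2 CPM against 3.47 and 1.85. Penk, the precursor of enkephalins, was at 650 and 387 against 144 and 135. Of 15 genes of adventitial fibroblasts 9 were lower and none higher, with medians of -1.53 and -1.44. Fn1, fibronectin, was at 2670 and 3042 CPM in members against 7694 and 9316. Cd55, which shields cells from complement, was at 216 and 193 against 1019 and 696.

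Of the complement list 13 genes were measured, and 5 were higher, among them Masp1, C2, Clu and C7, and 1 was lower (Cd55). Of 17 basement membrane genes 5 were higher and none lower, and of 29 interstitial matrix genes 3 were higher (Eln, Fbln1 and Mfap4) and 4 lower (Fn1, Fbn1, Emilin2 and Fmod). Col4a1, a chain of the main basement membrane collagen, was at 1700 and 1470 CPM against 459 and 587. Of 20 genes of lipid handling and adipogenesis 7 were higher and none lower. Lpl, lipoprotein lipase, was at 1536 and 581 CPM against 312 and 115, and F3, tissue factor, at 300 and 494 against 53.7 and 44.8. Pparg, Plin2 and Fabp5 of the same list were not called. Of 18 genes of xenobiotic and redox metabolism 5 were higher, namely Fmo1, Fmo2, Gstm2, Adh1 and Hsd11b1.

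The retinoid genes did not move one way. Aldh1a2, which makes retinoic acid, was at 149 and 195 CPM in members against 18.8 and 40.8, log2 ratios of 2.98 (2.65 to 3.35) and 2.26 (2.06 to 2.46). Aldh1a3, another enzyme for this step, was lower in members at 12.1 and 15.9 against 56.7 and 41.4. Rbp4 and Aldh1a1 were also higher. Of 12 measured retinoid genes 4 were higher and 2, Aldh1a3 and Crabp2, were lower.

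Of 18 measured Wnt genes 2 were higher in members (Sfrp1 and Sfrp2, secreted Wnt inhibitors), 3 were lower (the ligands Wnt2 and Wnt10b, and Rspo2) and 13 were not called. Wnt2 was at 2.48 and 3.09 CPM against 32.9 and 35.6, and Wnt10b at 11.4 and 6.89 against 88.2 and 47.4. Sfrp1 was at 625 and 584 against 105 and 118. Of 37 measured genes of the BMP and TGF-beta list 3 were higher, among them Bmper and Acvr2a, and 1 was lower (Bmp6).

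Cxcl12, the chemokine that retains blood progenitors, was at 651 and 857 CPM against 127 and 170. It was 1 of 3 higher genes among 19 chemokines and cytokines, with Cxcl14 and Cxcl16, and 3 were lower (Tnfrsf11b, Ackr3 and Ackr4). Growth factor and hormone genes had 9 higher and 2 lower of 38, among them Fgf7, Hgf and Ntf3. Of 31 transcription factors Meox1, Nr2f2, Gli1 and Peg3 were higher and Creb5 lower. None of 12 measured genes of mechanosensing and the YAP pathway differed 2-fold, and limb position genes had 1 called gene of 15 (Tbx5, lower). Dissociation genes such as Fos and Jun summed to 18850 and 18970 CPM in members against 14130 and 11820, but none of the 11 was called. Their part in the differences above was not tested.

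**Figure D3:**
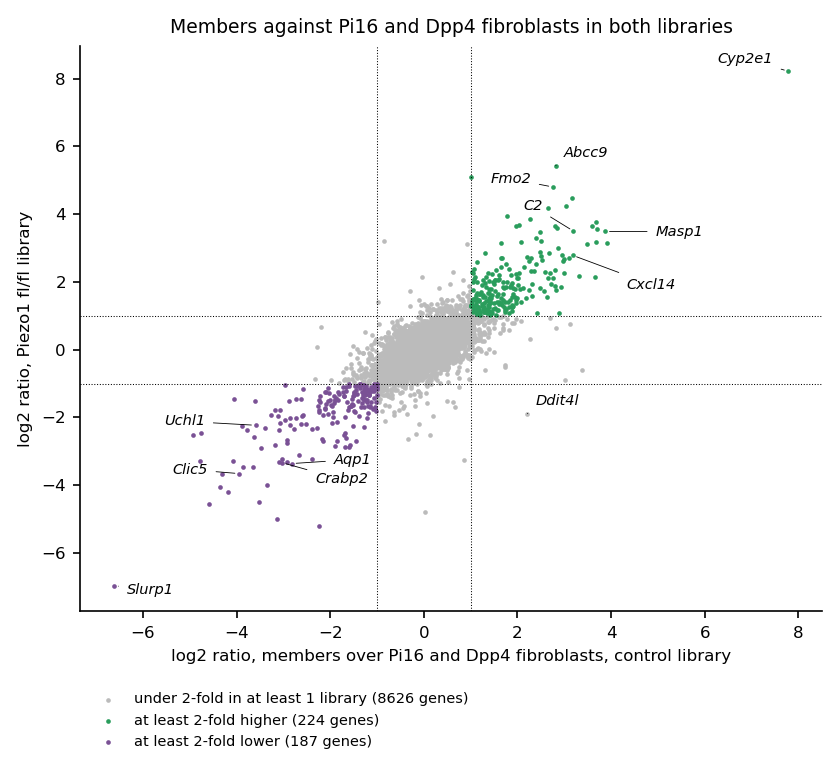
The log2 ratio of members over Pi16 and Dpp4 fibroblasts for 9037 genes, in the control (horizontal) against the Piezo1 fl/fl library (vertical), with dotted lines at 2-fold. The 224 higher genes fill the upper right and the 187 lower genes the lower left, and Ddit4l is the only gene past 2-fold in opposite directions.

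The comparison with SSPC-1-like cells sets members against progenitor cells of the same tissue, 447 and 239 cells with median depths of 5118 and 3934 UMIs. Of the lists, 8 of 16 chemokine and cytokine genes were higher in members and 2 lower, and 4 of 13 complement genes were higher and 1 lower. Among 8 tendon genes 7 were lower and none higher, and among 13 osteogenic genes 7 were lower and 1 higher. Parenchymal fibroblast genes had 6 higher and 2 lower of 17. At 2-fold in both libraries 326 of 8142 genes (4.0%) were higher and 325 (3.99%) lower. C4b, a complement component, was at 591 and 945 CPM in members against 7.32 and 47.0. C3, the central complement protein, was at 833 and 733 against 33.5 and 41.0. SSPC-1-like cells had to lie below the Dpt and Clec3b threshold, and these ratios depended on it. With the threshold at 20 UMIs per 10000 in place of the one used, the smaller log2 ratio was 2.19 for C4b, 2.11 for C3 and 2.00 for Ifi205, in place of 4.32, 4.15 and 3.96. Aldh1a2 had log2 ratios of 3.93 (3.37 to 4.59) and 4.08 (3.36 to 5.05) here.

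Ifi205, Ifi207, Tmeff2 and Scg3 were also named by rank, and the smaller of their log2 ratios lay between 3.47 (Ifi207) and 3.96 (Ifi205). Cxcl13, the chemokine that attracts B cells, had no UMI in SSPC-1-like cells, so members were at least 66.9-fold and 31.7-fold higher against a limit of 3 UMIs per group. That level came from 23 and 30 members, with 40.4% and 31.7% of its UMIs in 1 cell. Il6 was at 237 and 164 CPM against 11.9 and 20.5, 1 of the 8 higher chemokine and cytokine genes. The dissociation list stood at 12760 and 14650 CPM in SSPC-1-like cells, below members, and Atf3 was its 1 called gene of 11. Its part in the chemokine difference was not tested.

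Among lower genes Chad, chondroadherin, was at 121 and 111 CPM in members against 4457 and 3459. Wnt16 was at 3.09 and 3.33 against 373 and 156, and Kcnj2, a potassium channel, at 2.78 and 1.66 against 293 and 148. Npnt, Ostn, Cilp2, Ltbp2 and Dlx5 were the other 5 named. Runx2, the transcription factor of the osteoblast lineage and 1 of the lower osteogenic genes, was at 28.8 and 18.8 CPM against 207 and 149. Of 13 mechanosensing and YAP genes 3 were lower. Ccn2, a matricellular YAP target, was at 348 and 932 against 4326 and 5049, Piezo2 at 20.4 and 31.9 against 105 and 125, and Ccn1 at 387 and 515 against 1282 and 1239. Of 14 adventitial genes 9 were higher than in SSPC-1-like cells, such as Ly6c1 at 1747 and 1784 against 130 and 160. Cd55, Anxa3, Efhd1, Limch1 and Ugdh of this list lay between in members, below Pi16 and Dpp4 fibroblasts and above SSPC-1-like cells. Of 19 basement membrane genes 7 were higher and 1, Npnt, lower.

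Members differed in which of the 5 genes led. Gdf10 had the most UMIs of the 5 in 271 control and 274 Piezo1 fl/fl members, 47.4% (43.2 to 51.6) and 42.0% (38.1 to 45.9). Ccl11 led in 129 and 119 members, 22.6% (19.2 to 26.2) and 18.2% (15.3 to 21.4). Scn7a led in 41 and 143, 7.17% (5.19 to 9.60) and 21.9% (18.8 to 25.3). Ms4a4d led in 48 and 40, Inmt in 26 and 28, and 57 and 49 members had a tie. Over members, log-scaled Gdf10 and Ccl11 had a Pearson r of -0.51 (572 cells) and -0.39 (653 cells). The rule itself lowers that value, since a cell low in one gene had to reach 3 UMIs with the others. The Gdf10 and Inmt pair had r of 0.11 and 0.31.

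Gdf10-led and Ccl11-led members were compared on the genes that the rule did not use, as a description, since the groups were formed after the data had been seen. The median depth was 5548 and 6269 UMIs in Gdf10-led members and 4557 and 4751 in Ccl11-led members. At 2-fold in both libraries 133 of 5700 genes (2.33%) were higher in Gdf10-led and 109 (1.91%) higher in Ccl11-led members. Gdf10-led members held Abcc9, Hhip, Sfrp2, C2, Eln and the BMP antagonist Chrdl1. Ccl11-led members held laminin, nidogen and Smoc2, the chemokines Ccl2, Ccl7, Cxcl2 and Cxcl13, and Cd55 and Pcsk6.

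Abcc9 was at 136 and 396 CPM in Gdf10-led members. In Ccl11-led members it had 1 UMI in the control and none in the Piezo1 fl/fl library, where Gdf10-led members were at least 83.3-fold higher against a limit of 3 UMIs in the group. Kcnj8, the pore subunit that pairs with Abcc9 and was picked out after its values were seen, followed it at 15.9 and 48.9 CPM, with 1 UMI and none in Ccl11-led members. Both genes also mark pericytes. Rgs5, the most abundant pericyte gene of the mural list, was at 4.55 and 6.18 CPM in Gdf10-led members and 5204 and 4541 in mural-like cells, where Abcc9 was at 93.6 and 86.0. Of Gdf10-led members, 5 of 271 in the control and 15 of 274 in the Piezo1 fl/fl library had 3 or more UMIs of the mural list, which includes Kcnj8. The part of pericyte RNA in Abcc9 and Kcnj8 was not tested.

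Hhip, a secreted inhibitor and target of hedgehog signalling, was at 89.9 and 281 CPM in Gdf10-led against 1.56 and 6.35 in Ccl11-led members. Gli1, a transcription factor induced by hedgehog, was at 32.4 and 45.3 against 3.11 and 9.52. Pi16 and Dpp4 fibroblasts were below Gdf10-led members for both genes, with Hhip at 31.9 and 4.16 and Gli1 at 9.95 and 6.47.

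Sfrp2, a secreted Wnt inhibitor, was at 244 and 368 CPM against 9.33 and 12.7, log2 ratios of 4.59 (3.57 to 6.16) and 4.77 (3.87 to 6.07). With Sfrp1, Sfrp4, Dkk3, Wnt5a and Wnt9a this made 6 of 13 measured Wnt genes higher and 1 lower, Wnt11. Chrdl1, a BMP antagonist, was higher in Gdf10-led members, at 196 and 243 CPM against 21.8 and 27.0. Inhba, a subunit of activin, was the reverse at 9.68 and 14.4 against 145 and 113. Of 12 complement genes 5 were higher in Gdf10-led members, C2 among them.

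The matrix differed too. Of 15 basement membrane genes 7 were lower in Gdf10-led members and 2 higher. Nid1, nidogen, was at 1392 and 1359 CPM against 4765 and 3960 in Ccl11-led members. Lamb1, a laminin chain, was at 151 and 147 against 850 and 576, and Smoc2 at 293 and 351 against 2023 and 1033. In contrast Col4a4 and Col4a5 were higher in Gdf10-led members. Eln, elastin, was at 735 and 2599 CPM in Gdf10-led against 144.6 and 144.4 in Ccl11-led members, and Col1a1 at 32150 and 41260 against 12670 and 14560. Comp, a matrix protein of tendon and cartilage, was at 964 and 435 against 21.8 and 108.

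Several genes named above for all members therefore rested on Gdf10-led cells. Against Pi16 and Dpp4 fibroblasts, C2 had a log2 ratio of -0.49 and Abcc9 of -2.33 in the library with the smaller ratio when only Ccl11-led members were used. The C2 value is from the control library, where 5 Ccl11-led members held C2. In the Piezo1 fl/fl library 10 held it, and C2 stayed higher than in Pi16 and Dpp4 fibroblasts. In the same comparison Fmo2 (0.78), Ccbe1 (0.66) and Fam167a (-0.53) were under 2-fold. Masp1 was at 82.0 and 55.1 CPM in Gdf10-led members, and at 0 and 12.7 CPM in Ccl11-led members. Smoc2 and Hsd11b1 were higher in Ccl11-led members. Cd55, a gene of adventitial cells, was at 589 and 622 CPM in Ccl11-led members, closer to the 1019 and 696 of Pi16 and Dpp4 fibroblasts than the 63.2 and 60.8 of Gdf10-led members. Cxcl13 and Ccl2 came from few cells. Of Cxcl13, 1 cell held 48.8% and 62.1% of the UMIs of Ccl11-led members, and Ccl2 was found in 21 and 23 of them. The dissociation list was also higher in Ccl11-led members, at 21350 and 19180 CPM against 17460 and 15780, and its part in the chemokine difference was not tested.

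**Figure D4:**
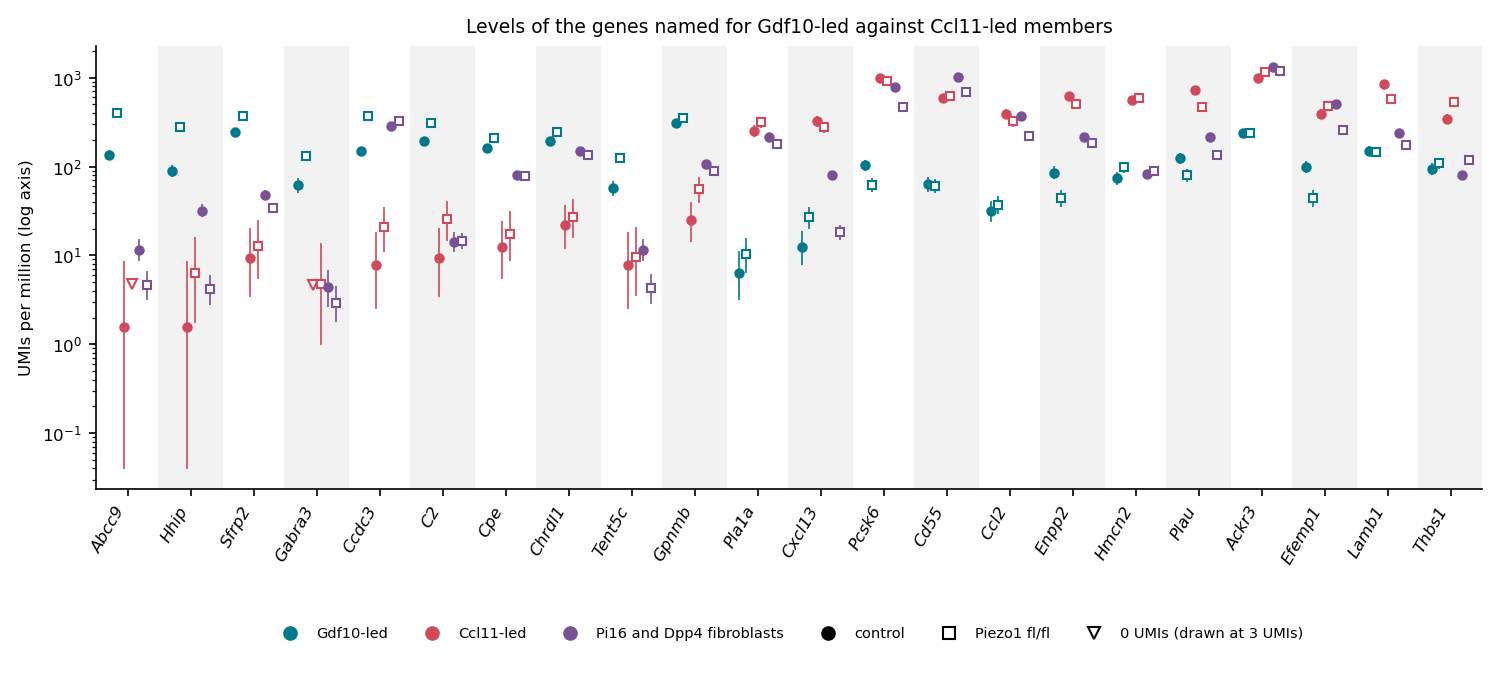
Levels of 22 genes named for Gdf10-led against Ccl11-led members, in CPM on a log axis, in these 2 groups and in Pi16 and Dpp4 fibroblasts of both libraries, with 95% Poisson intervals and groups without a UMI drawn at 3 UMIs. Genes from Pla1a to Thbs1 were higher in Ccl11-led members, and for Pcsk6, Cd55, Ccl2 and Ackr3 the Pi16 and Dpp4 fibroblasts were nearer to Ccl11-led than to Gdf10-led members.

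The comparison of the libraries within members asks how these fibroblasts differ between Piezo1 fl/fl and control mice. With 1 library each, the ratios below are between 2 libraries. Piezo1 itself had 8 UMIs in control and 4 in Piezo1 fl/fl members, 2.47 (1.07 to 4.88) and 0.951 (0.259 to 2.44) CPM, which overlap. UMIs here come from 3′ ends, and where the deleted part lies is not given in the sources used here, so Piezo1 does not check the genotype. Of 9059 genes with at least 50 UMIs over both libraries, 107 (1.18%) were at least 2-fold higher and 114 (1.26%) lower in Piezo1 fl/fl members. The median log2 ratio of all genes was -0.04.

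Sfrp4, a secreted Wnt modulator, was at 355 CPM in control and 1296 in Piezo1 fl/fl members, a log2 ratio of 1.87 (1.78 to 1.96). It was higher in each leading-gene group, with 1.31 in Gdf10-led, 1.77 in Ccl11-led and 2.50 in Scn7a-led members. The same ratio was 0.98 (0.93 to 1.04) in Pi16 and Dpp4 fibroblasts and 0.15 (0.06 to 0.25) in SSPC-1-like cells. Ccn2 was at 348 and 932 CPM, a log2 ratio of 1.42 (1.32 to 1.52), against 0.80 and 0.22 in these other groups. It was the 1 called gene of 13 measured mechanosensing and YAP genes, and its ratio lay between 1.18 and 1.57 in Gdf10-led, Ccl11-led and Scn7a-led members. Thbs4, a matricellular protein of tendon, was at 401 and 946 CPM, with 2.03 (1.73 to 2.35) in Scn7a-led but 0.10 (-0.04 to 0.24) in Gdf10-led members. The tendon class list includes Thbs4, so its sum does not show whether its other genes changed. Over all members the list was at 679 and 1227 CPM. It went from 608 to 1992 CPM in Scn7a-led members and from 812 to 681 in Gdf10-led members. In Pi16 and Dpp4 fibroblasts the list went from 824 to 2118 CPM, and tendon-like cells were 13.7% of the control and 20.9% of the Piezo1 fl/fl library. The part of tendon cell RNA in Thbs4 was not tested. Socs2, a suppressor of growth hormone signalling, had 1.70 (1.41 to 2.01) in members, 1.41 in Pi16 and Dpp4 fibroblasts and 0.91 in SSPC-1-like cells.

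Eln differed by subgroup. It was at 577 CPM in control and 1748 in Piezo1 fl/fl members, a log2 ratio of 1.60 (1.53 to 1.67). The Eln difference lay in Gdf10-led members, at 735 and 2599, while Ccl11-led members were at 144.6 and 144.4 and Scn7a-led members at 674 and 697. Pi16 and Dpp4 fibroblasts had a ratio of -0.08 (-0.22 to 0.07), and SSPC-1-like cells of 0.89 (0.79 to 0.99). Abcc9 and Kcnj8 were also higher in Gdf10-led members, with 1.54 (1.33 to 1.76) and 1.60 (1.00 to 2.28). Ccl11-led members held too few UMIs of either gene for a ratio. In Pi16 and Dpp4 fibroblasts Abcc9 had a ratio of -1.31 (-2.03 to -0.64). Rgs2, a brake on G protein signalling, was at 18.2 and 105 CPM in Gdf10-led members and at 17.6 and 17.2 in Scn7a-led members.

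Chl1, a neural adhesion molecule, was at 9.90 CPM in control and 55.6 in Piezo1 fl/fl members. Scn7a-led members accounted for most of it, with 174.5 CPM in the Piezo1 fl/fl library and 4.40 in the control, and their share of members also differed, as given above. The control value rests on very few Chl1 UMIs, since these members were 41 cells with 227080 UMIs, against 143 cells with 991239. In Gdf10-led members Chl1 had a ratio of 0.54 (-0.21 to 1.35). It was higher in Piezo1 fl/fl Pi16 and Dpp4 fibroblasts as well, 45.3 against 11.8 CPM.

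Retnlg, S100a9, S100a8 and Srgn, genes of neutrophils and other blood cells, had the largest positive ratios. The top Piezo1 fl/fl member for each gene held 32.6% of Retnlg, 22.8% of S100a9, 20.5% of S100a8 and 6.37% of Srgn UMIs. S100a9 was at 2.78 CPM in control and 140 in Piezo1 fl/fl members, a log2 ratio of 5.57 (4.72 to 6.79). In blood-like cells of the same libraries it was at 327 and 9268 CPM, and members held 0.851% and 1.51% of that level. Pi16 and Dpp4 fibroblasts had a like ratio of 6.31 (5.41 to 7.61), and SSPC-1-like cells of 3.50 (2.56 to 4.70). The defining blood list (Ptprc, Cd52, C1qa, Tyrobp and Lyz2) was at 96.2 and 91.5 CPM in members. In blood-like cells it was at 16540 and 15820, so there too it did not follow S100a9 and cannot trace it. Without cells that held 3 or more UMIs of blood, mural or endothelial markers the S100a9 ratio was 3.63. The part of RNA from blood cells in these 4 genes was not tested further.

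Of the lower genes, Lpl was at 1536 CPM in control and 581 in Piezo1 fl/fl members, a log2 ratio of -1.40 (-1.47 to -1.33). Its ratios were -1.26, -1.02 and -2.01 in Gdf10-led, Ccl11-led and Scn7a-led members, -1.44 in Pi16 and Dpp4 fibroblasts and -0.80 in SSPC-1-like cells. Of 21 genes of lipid handling and adipogenesis 3 were lower and none higher (Lpl, Cd36 and Fabp4). Fabp4 had a ratio of -1.81, which was -0.22 with at least 5 UMIs of the 5 genes and -0.62 with a mitochondrial limit of 10%, so its place in that count rested on the settings. Spon1, an extracellular matrix protein, was at 109 and 36.4 CPM, with ratios of -1.65, -1.81 and -1.62 in Gdf10-led, Ccl11-led and Scn7a-led members. Cyp26b1, which breaks down retinoic acid, was at 67.7 and 16.4 CPM, a ratio of -2.04 (-2.46 to -1.65) against 0.13 (-0.26 to 0.53) in Pi16 and Dpp4 fibroblasts. Angpt4, an angiopoietin, was at 56.9 and 15.7 CPM. Lepr, the leptin receptor, was at 113 and 52.8 in members, but its ratio was 0.79 (-0.20 to 1.87) in Ccl11-led members. Dkk2, a Wnt inhibitor, was at 443 and 185, and the difference lay in Gdf10-led members, at 591 and 93.7, where Sox9, a transcription factor of cartilage and tendon lineages, was also lower, at 91.1 and 23.7.

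Single cells held much of several other lower genes. Of the control UMIs of Mmp13, a collagenase of osteoblasts and hypertrophic cartilage, 91.8% came from 1 cell, and of those of Spp1, osteopontin, 88.2%. Without the top cell of each library the ratio was -0.49 for Mmp13 and -0.35 for Spp1, in place of -3.97 and -3.35. Retnla had 82.1% of its control UMIs in 1 cell and a ratio of -2.36 without the top cells, in place of -4.60. Fabp4 and H2-Ab1 had 56.6% and 49.4% in 1 control cell, and ratios of -1.39 and -1.70 without the top cells, in place of -1.81 and -1.43. Without cells that held 3 or more UMIs of blood, mural or endothelial markers H2-Ab1 was at -0.65 and Retnla at -1.16. Car3, the 1 called gene of the adipocyte list, was at 35.9 and 2.85 CPM, with 91.4% of its control UMIs in 1 cell. Bglap and Bglap2, osteocalcin genes of mature osteoblasts, were spread over more cells and were lower, with ratios of -2.19 (-3.16 to -1.38) and -1.78 (-2.53 to -1.12), and were lower in Pi16 and Dpp4 fibroblasts as well (-2.19 and -1.28). The osteogenic class list was lower with them in members, at 154 and 59.9 CPM, and osteogenic-like cells were 17.4% of the control and 7.74% of the Piezo1 fl/fl library. The part of osteoblast RNA in both genes was not tested.

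**Figure D5:**
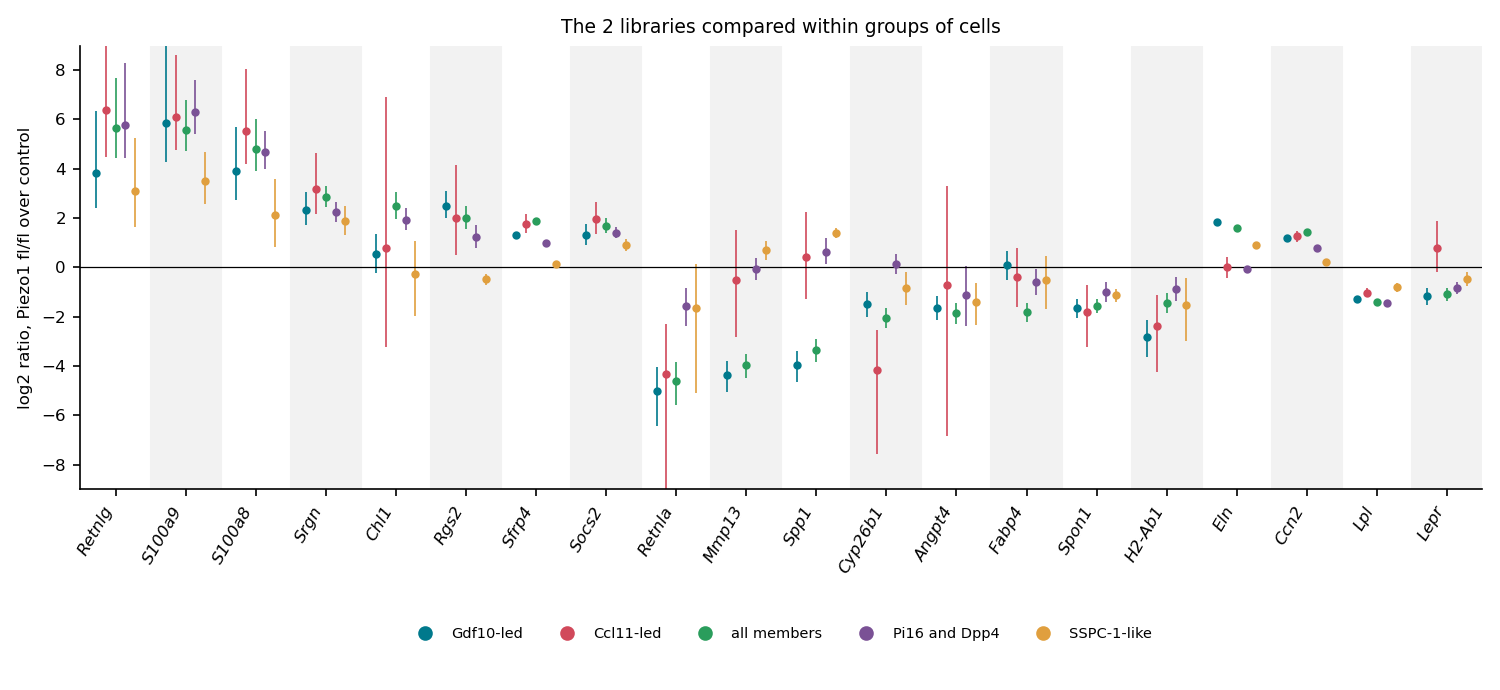
The log2 ratio of Piezo1 fl/fl over control for the 16 genes named in this comparison and for Eln, Ccn2, Lpl and Lepr of the gene lists, within 5 groups of cells, with 95% counting intervals cut at the ends of the axis. Eln had a ratio of 1.82 in Gdf10-led members and none in Ccl11-led members, at 144.6 and 144.4 CPM, and the blood genes at the left were higher in each of the 5 groups.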

How the data were processed

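The deposited values were counts, that is UMIs per gene and cell, as the authors left them before normalization, for 31253 genes in 6118 control and 7469 Piezo1 fl/fl barcodes with 28030299 and 32337308 UMIs. Cells had been thawed before capture. The submitters' processing notes name fastp, UMI-tools, STAR and Seurat 4.0.3. Their roles and the genome build are not given in the sources used here. Of the gene identifiers, 31107 were found in GENCODE vM21 and 30203 had the same symbol there.

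CPM values were made here by summing UMIs over the cells of each group and scaling that sum to 1000000 UMIs. Ratios are log2 with 0.5 UMIs added to each count. Intervals at 95% are exact (Poisson, Clopper-Pearson, or conditional for ratios) and cover counting error only. The ratio code was tested on simulated data. Doublets were scored with Scrublet in scanpy 1.11.5 (expected rate 0.05) and kept, 46 (0.829%) and 67 (0.988%) of the scored barcodes. Other steps used Python 3.11.15, numpy 2.4.6, scipy 1.17.1, pandas 2.3.3 and matplotlib 3.10.9.

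Genes were named by rank on the smaller of the 2 libraries' ratios, 12 in each direction (8 for SSPC-1-like cells and for genotype), provided that the group with more of the gene had 100 or more UMIs and 50 or more CPM, in each library where libraries were kept apart. Genes of the rule and class lists, sex-linked marker genes, genes for hemoglobin, ribosomal proteins and the mitochondrial genome, and unnamed gene models did not enter this ranking. All rule genes, Piezo1 and up to 4 genes of each list were added, and some further list genes were named after their values had been seen. Some genes that meet these rules are not reported here. SSPC-1-like and the other classes were cells below the Dpt and Clec3b threshold with 3 or more UMIs of the class markers and more than of all other classes together. The members and lists were chosen with earlier results of these data known, and the groups by leading gene after the data had been seen. The alternatives were 10 planned and 3 added after seeing the data.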

Additional observations from a re-analysis of the deposited data

Results flagged for a closer look

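Ddit4l, an inhibitor of mTOR signalling, was the only 1 of 9037 genes that differed at least 2-fold between members and Pi16 and Dpp4 fibroblasts in opposite directions in the 2 libraries. The log2 ratio of members over Pi16 and Dpp4 fibroblasts was 2.21 for control cells but -1.89 for Piezo1 fl/fl cells. The control had 81 UMIs in 56 members and 23 UMIs in 20 Pi16 and Dpp4 fibroblasts. The Piezo1 fl/fl library had 15 UMIs in 15 members and 88 UMIs in 57 Pi16 and Dpp4 fibroblasts. No cell held more than 13.0% of the UMIs of its group. With 1 library per genotype the difference was not tested.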

How the results depend on the processing

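The share of members was 11.2% (control) and 10.4% (Piezo1 fl/fl) with at least 5 UMIs of the 5 genes, 11.1% and 11.4% when they had to reach 2 times the opposing set, 9.43% and 9.94% with 20 Dpt and Clec3b UMIs per 10000, and 13.7% in the Piezo1 fl/fl library with a mitochondrial limit of 10%. With cells thinned to 2500 UMIs it was 10.7% and 9.54% (435 Piezo1 fl/fl members), 138 genes were higher than in Pi16 and Dpp4 fibroblasts, 193 lower than in SSPC-1-like cells, and 57 higher and 61 lower between genotypes. Fewer genes reached the minimum in thinned cells. With a minimum of 10 UMIs, which admits more genes, 430 genes were higher and 285 lower than in Pi16 and Dpp4 fibroblasts, 633 lower than in SSPC-1-like cells, and 377 higher and 476 lower between genotypes. With the stricter Dpt and Clec3b threshold 171 genes were higher than in SSPC-1-like cells. With Ccl11-led members alone, chosen after seeing the data, 138 genes were higher than in Pi16 and Dpp4 fibroblasts, and 43 were higher and 60 lower between genotypes. With these members the ratios of C2 (-0.49, control library), Abcc9 (-2.33) and, between genotypes, Spp1 (0.42) changed sign. C2 was found in only 5 control and 10 Piezo1 fl/fl Ccl11-led members. In the Piezo1 fl/fl library it stayed higher than in Pi16 and Dpp4 fibroblasts. The other changes of sign were between genotypes, for Spp1 under the stricter threshold (0.46), Mmp13 (0.077) and Fabp4 (0.80) in thinned cells and Fabp4 in Gdf10-led members (0.080). Signs against Pi16 and Dpp4 fibroblasts were read in the library with the smaller ratio. Masp1, at 0 CPM in control Ccl11-led members and thus below Pi16 and Dpp4 fibroblasts there, is therefore not listed. The cause of these changes of sign was not tested. Of the named genes' values under the alternatives, 252 of 312 against Pi16 and Dpp4 fibroblasts, 145 of 176 against SSPC-1-like cells and 156 of 208 between genotypes stayed within their counting intervals. No paired analysis was possible because each genotype had 1 library, and no library could be left out.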
